A study of Mus musculus with 12 samples.

Results

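Translation and cell type-specific expression were examined for 10 neuronal genes of the microtubule cytoskeleton, chosen by name from the 20504 genes with counts on coding sequence (CDS) in 12 mouse brain libraries. They comprised the α-tubulins Tuba1a, Tuba1b and Tuba4a, the β-tubulins Tubb2a, Tubb2b, Tubb3 and Tubb5, and the microtubule-associated proteins (MAPs) Map2, Mapt and Map1b. All 10 passed the filter of a mean of at least 37 CDS counts per library in every comparison, so none had to be left out.

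Microtubules are polymers of α- and β-tubulin heterodimers, and they form the tracks along which neurons ship cargo into axons and dendrites. MAPs bind the polymer and set its stability and spacing, with MAP2 known for its place in dendrites, tau (Mapt) for its abundance in axons and MAP1B for its role in growing axons. Tubulin genes encode isotypes of nearly the same sequence, and cells are known to adjust tubulin mRNA stability to the amount of free tubulin through a nascent-peptide mechanism.

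The animals were adult Camk2a-RiboTag mice, 3 months old by the study's methods, which carry a Camk2a-driven Cre and a conditional allele that puts an HA tag on the ribosomal protein Rpl22. The Camk2a promoter drives Cre in principal excitatory neurons of the forebrain, so the tag marks ribosomes of these cells and not those of glia or most interneurons. Mice A and B served as controls, called untreated in the labels and given vehicle by oral gavage according to the methods. Mice C and D received 100 mg/kg of AZD-8055, an ATP-competitive inhibitor of the kinase mTOR, by oral gavage for 1 h. Ligation-free ribosome profiling and poly(A)-selected RNA-Seq were carried out on the frontal brain tissue of each of these 4 mice. Mice E and F, labelled as untreated, were used for RiboTag: RNA was sequenced before (input) and after (IP) immunoprecipitation of polysomes with an HA antibody. Ribosome profiling counts the mRNA fragments protected by ribosomes (footprints), and translation efficiency (TE) is the ratio of normalized footprint to normalized RNA counts of a gene.

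CDS counts summed to between 9309496 and 15585831 in the RNA-Seq libraries and to 9259938 (A), 4551357 (B), 3503873 (C) and 4759336 (D) in the footprint libraries. With 2 mice a group, a permutation test of one gene could not go below an exact two-sided p of 0.33, and all tests therefore used models fitted across all genes. Values said below to lie apart or not to overlap carry no test, and the share of all genes without overlap was not counted. Apart from the IPs, the libraries came from whole tissue, in which fewer cells of a type and less RNA per cell cannot be told apart. Levels were not compared between genes, because coding lengths were not used here. Differences given as a fold, or as a log2 value with an SE, are fitted on another scaling than the printed normalized counts. They can therefore lie outside the ratios of those counts.

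The tubulin genes lie partly in tandem, and their reads can be hard to assign wherever the copies lie. In RefSeq's annotation of mouse GRCm38.p6, Tuba1b (chr15:98931429-98934390), Tuba1a (chr15:98949847-98953501) and Tuba1c (chr15:99029891-99038105) are neighbours, and Tubb2a (chr13:34074278-34078008) and Tubb2b (chr13:34127008-34130354) form a pair. Reads from stretches that tubulin genes share can be dropped or assigned to the wrong copy. Each tubulin value below carries that uncertainty, those of Tuba4a, Tubb3 and Tubb5 included. For this reason the members of each cluster were also summed to a single feature, which does not cover the tubulins outside these clusters. The other 6 members lie apart, with Tuba4a at chr1:75214972-75221261, Map2 at chr1:66175202-66442583, Tubb3 at chr8:123411553-123422015, Mapt at chr11:104229409-104332090, Map1b at chr13:99421464-99516602 and Tubb5 at chr17:35833920-35838301.

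mTOR inhibitors are known to act above all on mRNAs that begin with a terminal oligopyrimidine (TOP) motif, so the annotated start sites are shown for the genes on which the drug comparison turns. Each line gives 10 bases before and 20 bases from the RefSeq start (GRCm38.p6), with the pyrimidine run that begins at the start in capitals. The lines are Tuba1a (chr15:98953482-98953511, minus strand), Tuba1b (chr15:98934371-98934400, minus strand), Tubb3 (chr8:123411543-123411572, plus strand), Tubb5 (chr17:35838282-35838311, minus strand), Map1b (chr13:99516583-99516612, minus strand) and, as a gene known to respond, the elongation factor gene Eef1a1 (chr9:78481705-78481734, minus strand).
Tuba1a: agaagcaacaCCTCCTCCTCgcctccgcca
Tuba1b: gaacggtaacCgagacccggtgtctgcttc
Tubb3: gctgccgatcCTCCgcagcctgctgtccgc
Tubb5: cctatctcccgcccccggccgcgcgaacgc
Map1b: ggaggaggggggacgcagggggcggagcgg
Eef1a1: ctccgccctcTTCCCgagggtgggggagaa
Counting a start as TOP-like when it has a C followed by at least 4 further C or T bases on the transcribed strand, Tuba1a was the single match among the 8 members with a sequence, beside 823 of 32851 annotated starts (2.51%). None of the 4 known TOP mRNAs with a sequence, Eef1a1 among them, matched at its annotated start, so these starts need not be the ones used in brain and a missing match says nothing of the gene. Mapt and Tubb2b had no sequence in the table.

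The first comparison asked how heavily each mRNA was occupied by ribosomes in the control brains, relative to its abundance. The 3 MAP mRNAs had high TE, and the α-tubulin pair Tuba1a and Tuba1b and the β-tubulin Tubb2b had low TE. Tuba4a lay moderately above the median gene, and Tubb2a, Tubb3 and Tubb5 lay close to it. The test of footprints against RNA in mice A and B called 9 of the 10 members, 5 higher and 4 lower in footprints. This test called 73.8% of all 11797 genes (36.5% higher and 37.3% lower), so the count itself does not set the members apart and the sizes below carry the description. The median log2 TE over all genes was 0.000436 for A and 0.0325 for B, and the mouse-to-mouse difference had an SD of 0.262 across 10169 genes.

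**Figure D1:**
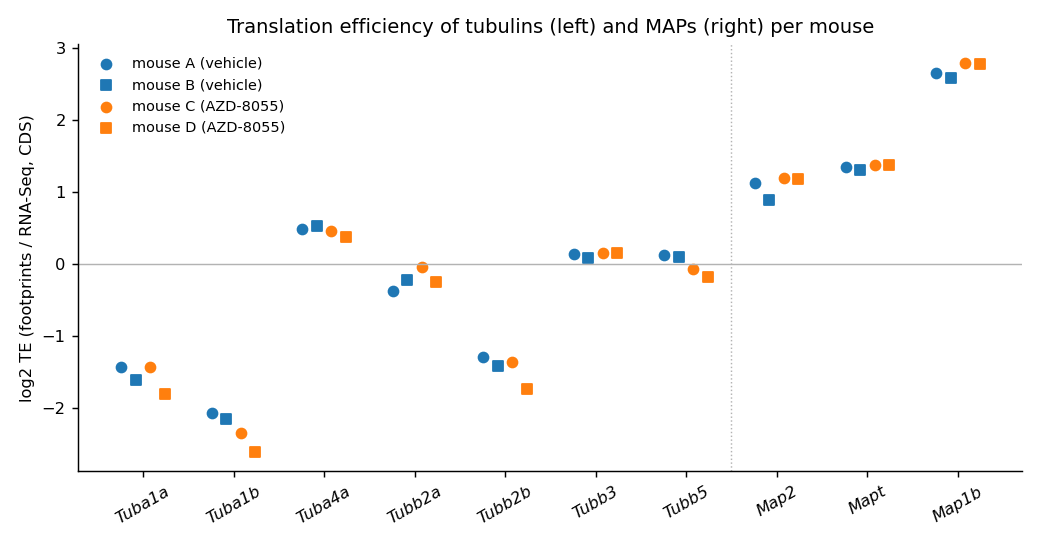
Log2 TE of the 10 genes in each of the 4 mice (circles A and C, squares B and D), with a line at equal normalized counts. Map1b lies at 2.59 or above in every mouse, Map2 and Mapt between 0.90 and 1.38, and Tuba1a, Tuba1b and Tubb2b at −1.30 or below.

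Among the α-tubulins, the 3 genes ran in opposite directions. Tuba1a, the main α-tubulin of postmitotic neurons, had 7653 normalized RNA counts in mouse A and 7110 in mouse B but 2853 and 2332 normalized footprint counts. Its footprint counts lay below its RNA counts in both mice, and the groups did not overlap. The fit gave a log2 difference of −1.47 (SE 0.0872, adjusted p = 4.59e-10, quasi-likelihood test of edgeR, Benjamini-Hochberg adjustment), and the log2 TE was at percentile 8.68 of all genes (A) and 6.25 (B). Tuba1b, a widely expressed α-tubulin, had 3055 and 3183 normalized RNA counts and 727 and 714 normalized footprint counts in mice A and B. It had the lowest TE of the 10, with a fitted log2 difference of −2.07 (SE 0.0786, edgeR adjusted p = 2.82e-12), at the 3.23 and 2.64 percentiles of all genes. Tuba4a, the α-tubulin that is encoded without its C-terminal tyrosine, had 6063 and 5481 normalized RNA counts and 8522 and 7907 normalized footprint counts. Its footprints were thus the higher of the pair in each mouse, with a log2 difference of 0.55 (SE 0.0600, edgeR adjusted p = 5.42e-07). The Tuba1 cluster summed to a single feature gave a log2 difference of −1.62. The sum holds only reads that were assigned to one of the genes, and the part of reads from shared stretches in the result was not tested.

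One further α-tubulin entry showed counts in one kind of library only. Tuba3b, an α-tubulin with a near-identical copy elsewhere, had 0 counts in all 8 RNA-Seq libraries and 332 (A), 96 (B), 90 (C) and 80 (D) footprint counts. Set against a floor of 3 counts over each group's RNA libraries, the normalized footprints were at least 216-fold higher in the control mice and at least 148-fold higher in the mice given AZD-8055. Tuba3b is not among the 10 genes, and whether its footprints come from other α-tubulin mRNAs was not tested. Tuba1c, the third gene of the chromosome 15 cluster, had 2 to 17 counts in each of the 12 libraries and adds little to the summed feature.

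Of the β-tubulins, Tubb2b alone had a TE far from the median. Tubb2b, known for its part in neuronal migration, had 944 and 1080 normalized RNA counts and 385 and 405 normalized footprint counts in mice A and B. The groups did not overlap, and the log2 difference was −1.33 (SE 0.0972, edgeR adjusted p = 5.37e-09), which is 2.51-fold lower in footprints. Its neighbour Tubb2a, a major β-tubulin of adult brain, had 4669 and 4251 normalized RNA counts and 3608 and 3658 normalized footprint counts. The log2 difference of Tubb2a was −0.25 (SE 0.0714, edgeR adjusted p = 0.00485), and it lost its call without mouse A (−0.14, edgeR adjusted p = 0.219). Summed, the Tubb2a and Tubb2b pair gave −0.40, closer to the value of the more abundant Tubb2a. Tubb3, the neuron-specific isotype used as a marker of neurons, had 4481 and 4240 normalized RNA counts and 4924 and 4519 normalized footprint counts. Its difference was small at 0.16 (SE 0.0638, edgeR adjusted p = 0.0352), and the call was lost without mouse A (edgeR adjusted p = 0.134), without mouse B (0.146), without mouse C (0.0596, which enters through the shared estimate of spread) and without a count filter (0.461). Tubb5, a β-tubulin of many cell types, had 7052 and 6197 normalized RNA counts and 7695 and 6628 normalized footprint counts. Its log2 difference of 0.16 (SE 0.0707) missed the threshold (edgeR adjusted p = 0.0584) and passed it with the mouse as a block (edgeR adjusted p = 0.0136).

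The MAP mRNAs stood at the other end. Map1b had 3197 and 3138 normalized RNA counts and 20209 and 18856 normalized footprint counts in mice A and B. The fit gave a log2 difference of 2.67 (SE 0.0536, edgeR adjusted p = 9.28e-15), or 6.35-fold, and the log2 TE lay at the 99.5 and 99.4 percentiles of all genes. Mapt had 1239 and 1158 normalized RNA counts and 3177 and 2859 normalized footprint counts. Its fitted difference was 2.60-fold (log2 1.38, SE 0.0712, edgeR adjusted p = 8.92e-11). Map2 had 1510 and 1644 normalized RNA counts and 3300 and 3061 normalized footprint counts, a 2.08-fold difference (log2 1.05, SE 0.0721, edgeR adjusted p = 2.36e-09). Both footprint values of each gene lay above both RNA values, in a comparison that called 36.5% of all 11797 genes higher. The share of all genes without overlap was not counted. The same RNA libraries held few MAP reads on CDS: CDS counts were 13.8% to 16.2% of all exon counts for Map2 and 28.2% to 32.1% for Map1b in mice A to D, against 22.6% and 19.0% for Map2 and 44.1% and 40.9% for Map1b in the inputs of mice E and F. Over genes with at least 100 exon counts, the median CDS share was 62.3% (A), 62.3% (B), 63.7% (C) and 62.7% (D). A lower RNA count on CDS raises a TE, and the part of read position in these values was not tested.

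The order of the members was the same in kind after AZD-8055. There the comparison of footprints with RNA called 8 members (5 higher, 3 lower) beside 70.6% of all genes (34.6% higher and 36% lower), and the called members kept their direction. Tubb2a (log2 −0.10) and Tubb5 (−0.08) did not pass, and Tubb3 lost its call without mouse C, without mouse D and without a count filter. In the individual mice A, B, C and D, log2 TE was 2.66, 2.59, 2.79 and 2.78 for Map1b and −2.07, −2.16, −2.35 and −2.61 for Tuba1b. For Map1b the mice lay close together within either treatment. For Tuba1b the treated mice lay further apart (SD 0.186) than the controls (SD 0.0603). The highest Tuba1b value was far below the lowest Map1b value.

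The same genes made up different shares of the RNA and of the footprints. Tuba4a took 36.2% (A), 34.7% (B), 36.7% (C) and 35.5% (D) of the RNA counts of the 3 α-tubulin members and 70.4%, 72.2%, 71.3% and 74.1% of their footprint counts. The 8 values fell into separate ranges, with 95% Wilson intervals of 36.1% to 37.3% for the highest RNA share (C) and 69.7% to 71.1% for the lowest footprint share (A), for counting error only. Tuba1a took 44.5% to 45.6% of the RNA counts and 20.9% to 23.6% of the footprints, and Tuba1b took 18.2% to 20.2% and 5.01% to 6.52%. Within the β-tubulins, Tubb2b took 5.35% to 6.85% of the RNA and 1.86% to 2.66% of the footprints. Tubb5 (39.3% to 41.5% of RNA, 39.7% to 46.3% of footprints), Tubb3 (26.1% to 26.9% and 29.6% to 33.1%) and Tubb2a (27.0% to 27.2% and 21.7% to 27.2%) differed less. Shares of counts are not shares of molecules, since the genes differ in length and in the stretches to which reads can be assigned. The loss of reads in shared stretches may also differ between footprint and RNA-Seq libraries. Its part in the shift of shares was not tested.

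**Figure D2:**
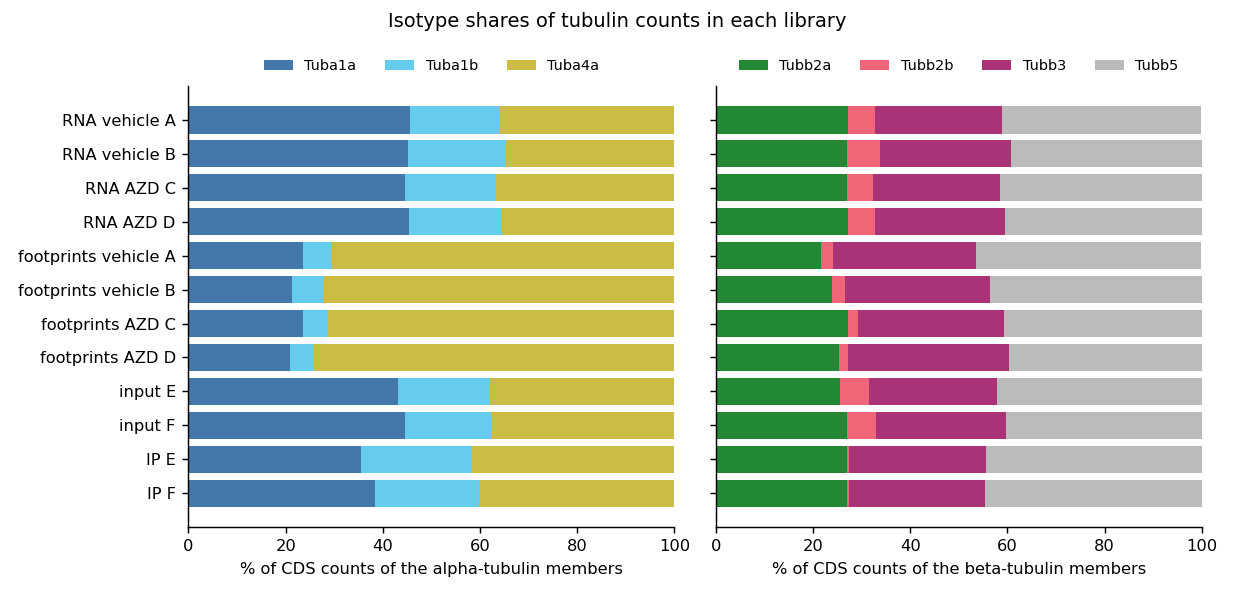
Share of each α-tubulin and β-tubulin member in the counts of its family (percent), by library. Tuba4a rises from 34.7% to 36.7% of the α-tubulin RNA counts to 70.4% to 74.1% of the footprint counts in mice A to D, and Tubb2b falls from 5.86% and 6.15% of the β-tubulin input counts to 0.449% and 0.557% in the IP.

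In total, the 7 tubulins made up 0.463% to 0.488% of CDS counts in the RNA-Seq libraries of mice A to D and 0.354% to 0.378% of the footprints. For the 3 MAPs the order was reversed, with 0.0819% to 0.0875% of RNA and 0.348% to 0.377% of footprints. Most MAP footprints were those of Map1b, with 24640 counts in mouse A beside 4023 for Map2 and 3874 for Mapt. The RNA shares count only reads on CDS, which were a small part of the exon counts of the MAPs. Coding length was not taken into account, so these shares do not compare the levels of MAPs and tubulins.

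Other genes of the microtubule system were counted in the same TE comparison, where 36.5% of all genes were higher and 37.3% lower. Of 12 further structural MAPs, 5 were higher and 5 lower in footprints, and their median log2 difference was 0.08 beside −0.01 over all genes. The largest rises were those of Dcx, the doublecortin of young neurons (2.08), and Map9 (1.62), and the largest falls those of Map7d1 (−1.25) and Map7 (−0.80), which binds kinesin-1. Dcx fell below 37 counts in a library of every mouse, so it had no single-mouse TE. Of 9 stathmins and collapsin response mediator proteins (CRMPs), regulators of tubulin assembly and axon growth, 7 were higher, led by Dpysl2 (4.00) and Dpysl3 (1.22), and Dpysl4 (−0.39) was lower. Of 10 proteins of the plus and minus ends, 5 were higher, with Mapre2 (1.23) and Clasp1 (0.99) first, and 3 lower, with Camsap3 (−0.90) lowest. Of 12 tubulin-modifying and severing enzymes tested, 2 were higher and 6 lower, from Ttll7, a polyglutamylase, at 1.58 to Vash1, a detyrosinating enzyme, at −1.65. Vash1 fell below 37 counts in a library of mouse B and of mouse C. The 7 tubulin-folding and autoregulation genes split into 2 higher (Tbca 1.00) and 3 lower (Tbce −0.93). Of 13 other tubulin genes 8 could be tested, and 3 were higher and 3 lower, with the γ-tubulin Tubg2 at −2.11. The highest value of this list, 10.9, was that of Tuba3b, which had no RNA-Seq counts and so no measured denominator.

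The second comparison asked whether mTOR inhibition changed the members' RNA, footprints or TE. After 1 h of AZD-8055, none of the 10 members passed the test for RNA, footprints or TE. The tests called 0.148% of 12182 genes for RNA, 1.03% of 10695 for footprints and 0.865% of 11797 for TE, so a count of 0 among 10 is near the background. DESeq2 likewise called 0 members in each of the 3 tests, beside 0.381% of genes for RNA, 1.53% for footprints and 0.907% for TE. At an unadjusted p under 0.05 edgeR found 1 member for RNA, 4 for footprints and 3 for TE, where 8.24%, 12.8% and 6.75% of all genes passed.

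The drug acted in these brains on the genes it is known for. All 7 TOP mRNAs examined as controls, which encode ribosomal proteins and translation factors, fell in TE by 1.17 to 1.59 on the log2 scale, and 0 of the 7 passed the test in RNA. Eef1a1 had 11403 (A) and 9855 (B) normalized footprint counts in the control mice and 3775 (C) and 3371 (D) after the drug, beside RNA counts of 23385 to 24659 in all 4. Its treated and control footprint values were far apart, and no member showed a difference of that size.

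**Figure D3:**
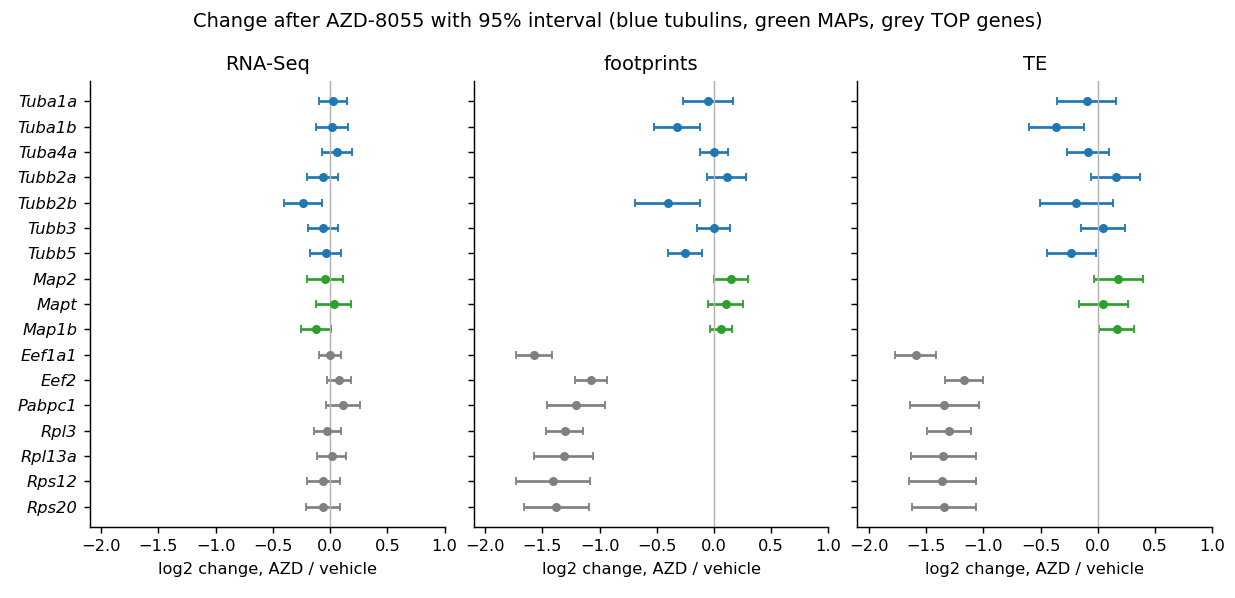
Log2 change after AZD-8055 (point and 95% interval) in RNA-Seq, footprints and TE for the 10 members and the TOP control genes. In TE the members lie between −0.36 and 0.18, and the 7 TOP control genes between −1.59 and −1.17.

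Tuba1b had the largest member change in TE. Its normalized footprint counts were 727 (A) and 714 (B) in controls and 615 (C) and 539 (D) after AZD-8055, and its RNA counts were 3055, 3183, 3127 and 3291. Footprints in the treated mice lay below those of both controls, while RNA values did not separate. The TE change was −0.36 (95% interval −0.60 to −0.12, edgeR adjusted p = 0.346) and the footprint change −0.32 (−0.53 to −0.12, edgeR adjusted p = 0.184). Tubb5 had 7695 and 6628 normalized footprint counts in controls and 6311 and 5726 after treatment, again without overlap, and its RNA counts were 7052, 6197, 6613 and 6465. Its TE change was −0.23 (−0.44 to −0.02, edgeR adjusted p = 0.682) and its footprint change −0.25 (−0.40 to −0.10, edgeR adjusted p = 0.166). Tubb2b differed in both kinds of library, with 385 and 405 footprint counts against 331 and 268, and 944 and 1080 RNA counts against 852 and 896. Neither set overlapped. Its footprint change was −0.40 (−0.69 to −0.12, edgeR adjusted p = 0.242), its RNA change −0.23 (−0.40 to −0.07, edgeR adjusted p = 0.390) and its TE change −0.19 (−0.50 to 0.13).

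These 3 footprint changes kept their direction whichever treated mouse was left out. Without mouse D they were −0.25 for Tuba1b, −0.27 for Tubb2b and −0.20 for Tubb5. Without mouse C, Tuba1b (−0.39, edgeR adjusted p = 0.0121), Tubb2b (−0.52, edgeR adjusted p = 0.0112) and Tubb5 (−0.30, edgeR adjusted p = 0.000849) passed the test with mouse D as the single treated animal, whose spread is then assumed to be that of the control pair. That fit called 7.63% of 10970 genes (837, against 110 with mouse C), so the members' calls came with a rise in calls over all genes. No member passed without mouse A, B or D. Summed paralogs moved less, with a footprint change of −0.11 for the Tuba1 cluster and 0.07 for the Tubb2a and Tubb2b pair.

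No MAP passed the test either. Map1b had 20209 and 18856 normalized footprint counts in controls and 20457 and 20252 after AZD-8055, beside RNA counts of 3197 and 3138 against 2954 and 2944. Its treated RNA values lay below and its treated footprint values above those of both controls, each by a small margin. The TE change was 0.17 (95% interval 0.01 to 0.32, edgeR adjusted p = 0.675). Map2 changed in TE by 0.18 (−0.04 to 0.40) and Mapt by 0.05 (−0.16 to 0.26). The remaining tubulins had TE changes of −0.10 for Tuba1a (−0.36 to 0.16), −0.09 for Tuba4a (−0.27 to 0.10), 0.16 for Tubb2a (−0.06 to 0.37) and 0.04 for Tubb3 (−0.15 to 0.23). The lowest end of any of the 10 intervals was the −0.60 of Tuba1b, above the −1.17 of the least affected TOP control. Tuba1a, the member with a TOP-like annotated start, had 2853 and 2332 footprint counts in controls and 2764 and 2247 after the drug, and these values interleaved.

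No other microtubule gene passed either. Across the 6 lists of further tubulins, structural MAPs, end-binding proteins, stathmins and CRMPs, folding factors and modifying enzymes, 0 genes were called for RNA, footprints or TE. List medians of the TE change ran from −0.14 for 8 other tubulins to 0.10 for 12 other structural MAPs, beside −0.01 over all genes.

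The third comparison asked which members were enriched on tagged ribosomes of Camk2a-expressing neurons. In mice E and F, 6 of the 7 tubulins were higher in the IP than in the input, between 2.14-fold and 3.40-fold, while Tubb2b, Map2 and Map1b were lower and Mapt did not pass. The test called 9 of 10 members, 6 higher and 3 lower, beside 75.5% of 12211 genes (36.5% higher and 39% lower). Since most genes pass this test, the sizes are the description here too. Of the 7 TOP control genes, 6 were also higher in the IP and 0 lower, with a median log2 difference of 0.64 and a maximum of 1.25. A rise of the size seen for Tuba1a (log2 1.10) was therefore not particular to the tubulins. On exon counts 4 of these 7 genes were higher and 1 lower, with a median of 0.234. Each mouse gave both of its libraries, so the libraries form 2 pairs, but the main test did not use this pairing.

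**Figure D4:**
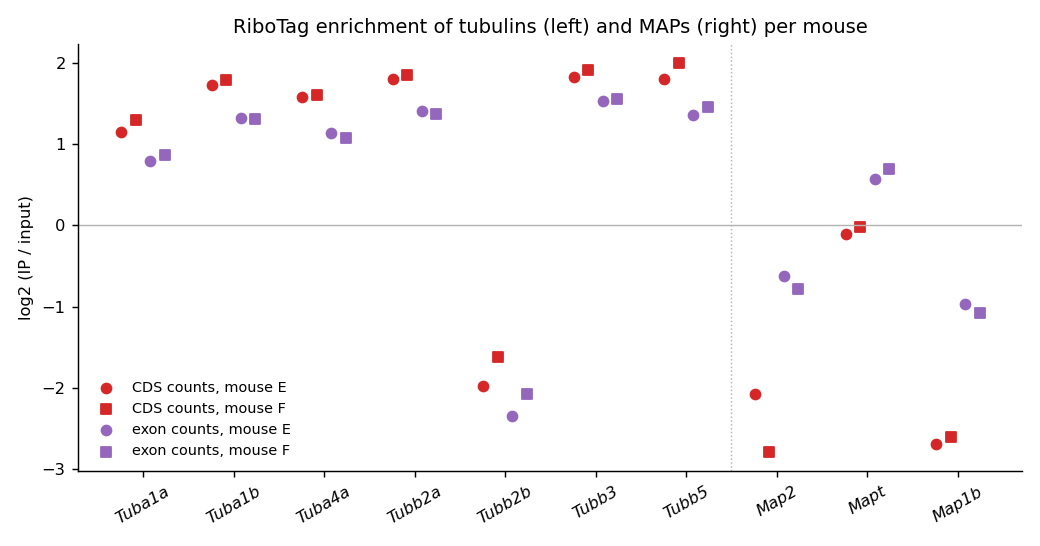
Log2 ratio of IP to input in mice E and F for the 10 genes, from CDS and from exon counts. On CDS the 6 enriched tubulins lie between 1.15 and 1.99, Mapt near 0, and Tubb2b, Map2 and Map1b between −2.79 and −1.62.

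The IP was checked against markers of the cells that the tag should and should not mark. Markers of inhibitory neurons (5 of 5), astrocytes (5 of 5), oligodendrocytes (6 of 6), their precursors (3 of 3), endothelium (4 of 4) and microglia (3 of 4) were lower in the IP, with list medians between −4.27 and −2.42 on the log2 scale. Of 6 excitatory markers 4 were higher and 2 lower, among them Camk2a (−0.66). On exon counts 5 of these were higher and 0 lower. Summed over each list, excitatory markers came to 5110 (E) and 4790 (F) counts scaled to each library total (CPM) before and 7270 and 6730 CPM after immunoprecipitation. Inhibitory markers came to 929 and 949 CPM before and 199 and 130 after, astrocyte markers to 879 and 776 before and 70.6 and 79.9 after, and oligodendrocyte markers to 2350 and 2230 before and 180 and 185 after. Precursor markers went from 105 and 106 CPM to 6.34 and 5.11, microglial from 247 and 262 to 17.2 and 18.9, and endothelial from 192 and 194 to 6.98 and 9.42. No marker of any list was at 0 in any library.

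On CDS counts, Tubb5 and Tubb3 had the largest rises of the members. Tubb5 had 7425 (E) and 7733 (F) normalized input counts and 25916 and 30732 normalized IP counts, a 3.40-fold difference (log2 1.77, SE 0.106, edgeR adjusted p = 2.92e-06). Tubb3 had 4662 and 5125 input counts and 16533 and 19329 IP counts, a 3.34-fold difference (log2 1.74, SE 0.111, edgeR adjusted p = 3.4e-06). Both IP values of each gene lay far above both inputs. These folds are fitted, and they lie below the ratios of the printed counts in either mouse. Tubb2a (3.23-fold), Tuba1b (3.08-fold) and Tuba4a (2.74-fold) followed, and their standard errors of 0.103 to 0.118 do not separate these neighbours in the order. Tuba1a, with 7947 and 9303 input counts and 17672 and 22838 IP counts, had the smallest rise on CDS (log2 1.10, SE 0.134, edgeR adjusted p = 8.41e-05). This order depended on the part of the mRNA counted. On exon reads outside CDS, an alternative chosen after seeing the data, Tubb5 was at 0.67, below Tuba1a at 0.95, Tuba1b at 1.27, Tubb2a at 1.44 and Tubb3 at 1.5.

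Tubb2b went the opposite way to its neighbour Tubb2a. It had 1033 and 1182 normalized input counts and 262 and 385 normalized IP counts, 3.76-fold lower (log2 −1.91, SE 0.179, edgeR adjusted p = 1.84e-05). The values did not overlap, and Tubb2b was the single tubulin member that fell. Summed with Tubb2a, the pair was higher in the IP at 1.42, since Tubb2a supplied most counts. Its fall stood beside that of the glial and inhibitory marker lists given above, and the part of any of these cell types in it was not tested. Of 13 other tubulin genes 7 could be tested, of which 5 were higher, among them Tubg2 (1.91) and Tubb4b (1.82), and 0 were lower.

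For the MAPs, the result depended on which part of the mRNA was counted. On CDS, Map1b had 7214 and 7435 normalized input counts and 1115 and 1223 normalized IP counts. Its fitted difference was 6.87-fold lower (log2 −2.78, SE 0.112, edgeR adjusted p = 1.85e-06), more than the ratios of these counts. Map2 had 3273 and 3210 input counts and 774 and 465 IP counts, 5.73-fold lower (log2 −2.52, SE 0.217, edgeR adjusted p = 1.18e-05). Mapt had 1889 and 2004 input counts and 1752 and 1971 IP counts, lower in the IP of each mouse by 0.11 (E) and 0.02 (F) on the log2 scale. The difference did not pass without the mouse as a block (log2 −0.20, SE 0.116, edgeR adjusted p = 0.149) and passed with it (edgeR adjusted p = 0.0475). On exon counts, which include untranslated regions, Map1b was lower by less, at −1.14 (edgeR adjusted p = 0.000101), with 19765 and 20961 input counts against 10110 and 9935 IP counts. Map2 was at −0.82 (edgeR adjusted p = 0.000362), with 17553 and 19480 against 11354 and 11352. Mapt turned to a rise of 0.52 (edgeR adjusted p = 0.00277), with 10708 and 11042 against 15918 and 17811. The tubulins kept their direction on exon counts, from 0.71 for Tuba1a to 1.43 for Tubb3 and −2.31 for Tubb2b. The exon test called all 10 members beside 69.4% of 13254 genes.

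The share of exon counts that fell on CDS showed the same gap directly. For Map1b it was 44.1% (E) and 40.9% (F) of input counts and 9.86% and 9.92% of IP counts. For Map2 it was 22.6% and 19.0% against 6.1% and 3.3%, and for Mapt 21.3% and 20.9% against 9.85% and 8.92%. All 3 MAPs thus had a smaller part of their reads on CDS in the IP than in the input of the same mouse. The median gene went from 65.5% and 64.5% to 50.1% and 46.8%, and Map1a, a long relative of Map1b, from 81.8% and 79.2% to 50.2% and 41.6%. Tubulin members other than Tuba4a had 81.0% to 95.8% of their input reads and 73.4% to 93.5% of their IP reads on CDS, and the exon count of Tuba4a was below its CDS count. Counting only exon reads outside CDS, Map1b was at −0.99, Map2 at −1.06 and Mapt at 0.21 (edgeR adjusted p = 0.0959). The part of read position along the mRNA in the fall of MAP CDS counts was not tested.

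**Figure D5:**
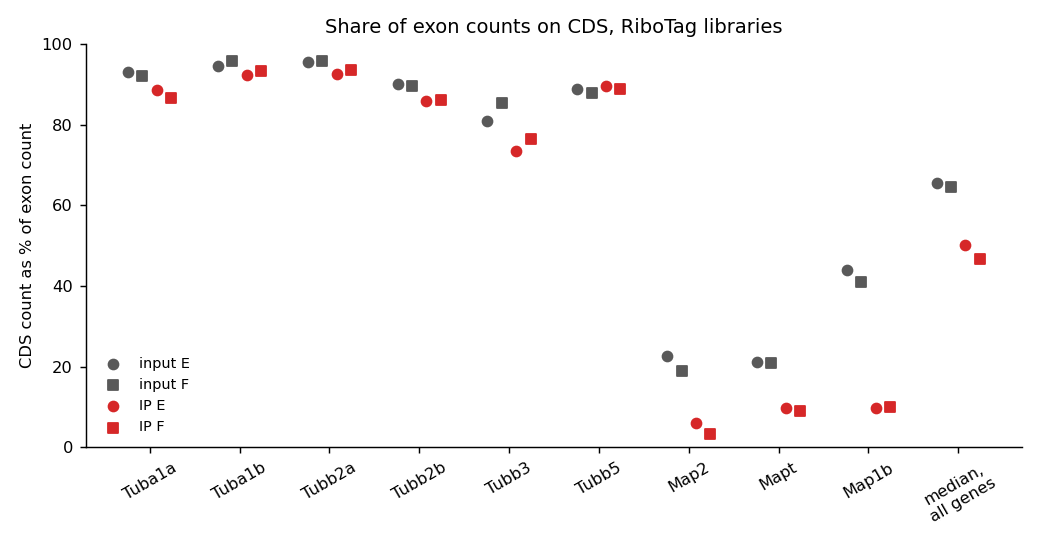
CDS counts as a percent of exon counts in the inputs and IPs of mice E and F for the members other than Tuba4a and for the median gene. Map1b drops from 44.1% and 40.9% to 9.86% and 9.92%, Map2 from 22.6% and 19.0% to 6.1% and 3.3%, and the tubulins shown stay at 73.4% or above.

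Related genes were counted in the same way in the IP, where 36.5% of all genes were higher and 39% lower. Of 12 other structural MAPs, 4 were higher on CDS, led by Map7d1 (1.00) and Map1s (0.82), and 7 lower, led by Dcx (−3.45) and Map9 (−1.66), with a median of −0.48 beside −0.07 over all genes. On exon counts 5 were higher and 3 lower with a median of 0.207, and Map9 moved to 0.21. Of 9 stathmins and CRMPs, 5 were higher, Stmn3 (2.21) and Stmn4 (2.11) first, and 3 lower, with Dpysl5 (−1.64) lowest, and the median was 0.80. The tubulin-folding group had 4 of 7 higher, among them the cofactors Tbcb (2.17) and Tbcc (2.12), and 0 lower. End-binding proteins had 2 of 10 higher and 5 lower, with Clasp1 at −1.72, and of 12 modifying and severing enzymes 4 were higher and 2 lower, with Ttll7 at −1.90.

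Finally, the genes whose normalized levels followed a member most closely over the 12 libraries were ranked by the root mean square of the difference in log2 profile, each profile centred on its own mean, among 12013 genes. Tubb3 was closest to Mdh2 (0.0377), Psmc3 (0.0476), Eef1a2 (0.0595), Urod (0.0662) and Rnaseh2a (0.0691), where the median gene was at 0.774. For Tuba1a the nearest were Zfp61 (0.108), Msto1 (0.112), Sap30l (0.113), Klhdc3 (0.127) and Ctdnep1 (0.127), with a median of 0.934. For Map2 they were Adcyap1r1 (0.133), Ccdc88a (0.134), Aff4 (0.143), Ubr1 (0.146) and Xrn1 (0.150), with a median of 1.18. Within the members, Tubb3 and Tubb5 were the closest pair (0.116), followed by Tubb2a and Tubb5 (0.149), and Tuba1b and Map1b were farthest apart (2.95). These distances are a description over libraries that share mice and depth, and they carry no test.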

How the data were processed

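The authors deposited raw read counts per gene: a CDS table of the 12 libraries and an exon table of the 8 RNA-Seq libraries, neither normalized. Per the labels and methods, reads were trimmed, rRNA reads were removed with Bowtie2, and the rest were aligned to mm10 with TopHat2 and counted with HTSeq (versions and gene annotation not given in the sources used here). Unique assignment affects near-identical tubulin paralogs. A share of 0.350% of CDS counts lay in 27 date-like symbols.

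Libraries with the same letter come from 1 animal. Deviations correlated at 0.243 (A and B), 0.197 (C and D) and 0.476 (E and F) between paired library types. Counts were fitted with edgeR 4.0.16 in R 4.3.3 (TMM normalization, quasi-likelihood test, Benjamini-Hochberg adjustment over all genes, threshold 0.05), keeping genes that averaged 37 or more counts over the libraries of a fit. The 8 libraries of mice A to D entered 1 fit for TE. RNA, footprints and IP had fits of their own. The main fits had no term for the mouse. Printed normalized counts, single-mouse TEs, percentiles and likeness values (pseudocount 1) used DESeq2 1.42.0 size factors, and fitted differences used TMM. Percentile ranks were taken among genes with at least 37 counts in both libraries of a mouse. Shares have 95% Wilson intervals, for counting error only. On simulated data with 200 genes changed by 1.5 (log2), the TE test recovered 93.5% with 3.61% false calls, RNA 96% with 1.54%, footprints 95.5% with 5.45% and IP 94% with 3.59%. The simulated libraries were drawn independently around a single mean per gene, without mouse pairs. Their change was larger than any member change after AZD-8055, so these rates do not give the power of the member tests. Python 3.11.15 was used for tables and plots.

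Alternatives were DESeq2, RLE or upper-quartile factors, no count filter, a 2-fold limit, the mouse as a block, exon counts, summed paralogs and leaving out each mouse. The members, lists and tests were chosen with earlier results of these data known. Named genes are the 10 members, up to 2 called genes per direction from each other list, and the 5 genes most like Tuba1a, Tubb3 and Map2. Some marker genes are not reported here by name.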

Additional observations from a re-analysis of the deposited data

How the results depend on the processing

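Of 589 member values recomputed under the alternatives, 538 kept their direction and their side of the threshold. Near-zero values after AZD-8055 turned sign without any being called. Footprint changes of Tuba4a became 0.000245 (DESeq2), 0.000535 (RLE) and 0.0166 (upper quartile), and those of Tubb3 0.000809, 0.000668 and 0.017. The TE change of Tubb3 was −0.00125 without a count filter. Summing paralogs gave Tubb2b the value of its pair, 0.14 for TE change, 0.0688 for footprint change and 1.42 for the IP. Mapt in the IP was 0.52 on exon counts and 0.21 outside CDS. The cause of these reversals was not tested, other than the summing itself.

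With the mouse as a replicate block, Tubb5 in the control TE comparison (0.16, edgeR adjusted p = 0.0136) and Mapt in the IP (−0.20, edgeR adjusted p = 0.0475) were called, and no other member's call changed. The block called 76.1% of all genes in that TE comparison and 81.9% in the IP. Over all genes the block called 147 TE changes in place of 102, with 31 higher in place of 9. DESeq2 called 15 higher in TE in place of 9, 11 higher in footprints in place of 5, and 6 higher and 17 lower in RNA in place of 7 and 11. Its unadjusted p was under 0.05 for 402 genes in TE, 284 in RNA and 534 in footprints, in place of 796, 1004 and 1369. Upper-quartile factors moved the median of all genes in the IP by −0.195 (3823 higher and 5427 lower in place of 4455 and 4766), and called Mapt at −0.39 (edgeR adjusted p = 0.0128).

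Leaving out each mouse in turn, the number of members called for footprint change ranged from 0 to 3, the 3 being without mouse C, where 837 of all genes were called in place of 110 (82 without mouse A, 64 without mouse B and 265 without mouse D). The TE change called 56 to 77 genes in place of 102, and the RNA change 13 to 36 in place of 18. Uncalled values whose sign turned ranged as follows. RNA changes ranged from −0.0269 to 0.0637 for Tuba1b, −0.12 to 0.0479 for Tubb5, −0.0212 to 0.0703 for Tuba1a (−0.0162 without mouse B), −0.12 to 0.027 for Map2 and −0.00606 to 0.0725 for Mapt, and Tuba1b was at −0.0176 without mouse A. Footprint changes ranged from −0.18 to 0.07 for Tuba1a (0.0599 without mouse A), −0.0158 to 0.013 for Tuba4a (0.011 without mouse D) and −0.0518 to 0.0446 for Tubb3 (0.0215 without mouse A). The TE change of Tuba1a ranged from −0.26 to 0.0701, and footprints against RNA of Tubb2a after AZD-8055 from −0.18 to 0.011. Without an IP mouse the comparison of E or F is a value with no test. With the 2-fold limit 6 members remained called in each comparison of footprints with RNA and 9 in the IP. Of all genes, that limit called 30.8% in the control mice, 29.3% after AZD-8055 and 46.5% in the IP. Footprint counts were lowest in mouse C, with 155 for Tubb2b and 288 for Tuba1b, and each group held 2 mice. The part of depth in the results was not tested.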
